A study of Mus musculus with 25 samples.

Results

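The BCL2 family holds the proteins that keep or break the outer membrane of mitochondria, and 10 of its genes were followed here through the *soleus* muscle of mice at rest and after exercise. The genes were the survival members *Bcl2*, *Bcl2l1* and *Mcl1*, the pore-forming effectors *Bax* and *Bak1*, and the BH3-only death signals *Bcl2l11*, *Bbc3*, *Pmaip1*, *Bad* and *Bid*. They were picked by symbol, with earlier results of these data known, out of a count table of 52636 genes. Each symbol matched 1 gene, and all 10 were among the 16340 genes with enough reads to be tested.

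Survival members bind effectors and BH3-only proteins and hold them inactive. When BH3-only proteins outnumber the free survival members, *Bax* and *Bak1* proteins assemble in the outer membrane, cytochrome c leaves the mitochondrion and caspases are switched on. Muscle fibers hold many nuclei and mitochondria, and the family is known there from studies of atrophy, denervation and mitochondrial turnover.

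RNA of the *soleus*, a slow postural muscle of the hind limb, was sequenced from 25 mice of 12 weeks, with 1 library per mouse. All mice carried *Dnmt3a* alleles with loxP sites around exon 19 on a C57BL/6 background. The mD3AKO mice also carried a Cre transgene under the muscle creatine kinase promoter, which is active in skeletal muscle fibers and heart. The WT mice were floxed and had no Cre. Exercised mice ran on a treadmill for 30 minutes at 16 m per minute on a 5% incline and were killed 60 minutes later, and resting mice had spent the same time on a treadmill arena that did not run. There were 5 WT mice at rest (2 female and 3 male), 7 WT mice after exercise (4 female and 3 male), 7 mD3AKO mice at rest (3 female and 4 male) and 6 mD3AKO mice after exercise (3 female and 3 male).

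Totals ranged from 22671457 to 37431801 counts per library, and at the median total 1 count in 1000000 (1 CPM) rested on 32.2 reads. *Dnmt3a* stood at 93.4 to 131 CPM in WT and at 34.5 to 53.9 CPM in mD3AKO mice and so split the libraries as the labels do. The 8 muscle fiber markers looked up were present in every library. The library of mouse 15, a resting mD3AKO male, stood apart, since 3 ribosomal RNA genes took 39.5% of its counts against 7.75% to 13.0% in the other libraries. Levels below are CPM on library sizes scaled by the TMM method. A gene was called when its adjusted p in edgeR's quasi-likelihood test was under 0.05, after adjustment over all tested genes. The libraries are of whole muscle, so fewer cells of a type and less RNA per cell cannot be told apart.

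The 3 members that were called after exercise are shown first by the 250 bases ahead of the RefSeq transcription start nearest to the start of the gene, because all of them rose and the start is where a shared sequence would be looked for. The sequences are from GRCm38.p6 and run 5′ to 3′ on the gene's own strand, and capitals mark a match to 1 of 4 motifs. *Bcl2l1* lies on the minus strand of chromosome 2, with the stretch at chr2:152831729-152831978. *Bcl2l11* lies on the plus strand, with the stretch at chr2:128125788-128126037, and *Mcl1* on the plus strand, with the stretch at chr3:95658471-95658720.
Bcl2l1: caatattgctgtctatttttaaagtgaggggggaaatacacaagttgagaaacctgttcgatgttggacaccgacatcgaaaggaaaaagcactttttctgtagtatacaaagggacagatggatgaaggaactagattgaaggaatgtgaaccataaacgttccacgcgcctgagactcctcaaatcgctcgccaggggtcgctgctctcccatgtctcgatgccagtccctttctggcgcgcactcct
Bcl2l11: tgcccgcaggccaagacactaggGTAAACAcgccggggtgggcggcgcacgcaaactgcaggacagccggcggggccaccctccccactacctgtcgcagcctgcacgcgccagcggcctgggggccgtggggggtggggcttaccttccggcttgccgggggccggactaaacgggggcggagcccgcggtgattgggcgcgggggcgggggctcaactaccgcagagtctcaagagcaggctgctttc
Mcl1: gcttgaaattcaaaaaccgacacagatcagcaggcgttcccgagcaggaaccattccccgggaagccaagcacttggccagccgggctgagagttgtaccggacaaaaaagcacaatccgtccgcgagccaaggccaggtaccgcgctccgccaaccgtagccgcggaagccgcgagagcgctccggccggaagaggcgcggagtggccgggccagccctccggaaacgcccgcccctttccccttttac

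The motifs were chosen after the values had been seen and were read on both strands. They were GTAAACA, the core bound by forkhead factors such as FOXO, TGACGTCA, the cAMP response element, TGANTCA, the AP-1 element, and TTCNNNGAA, the STAT element. The forkhead letters occurred once in *Bcl2l11*, starting 227 bases ahead of the transcription start, and neither *Bcl2l1* nor *Mcl1* held a match to any of the motifs in these windows. RefSeq lists 2 starts for *Bcl2l11* and 3 for *Bcl2l1*, and the windows of the inner ones, *Bcl2l11* at chr2:128127325-128127574 and *Bcl2l1* at chr2:152830718-152830967 and chr2:152828490-152828739, held none of the motifs. Across 32851 RefSeq windows of the same length, the forkhead letters were present in 3.17%, the cAMP response element in 1.55%, the AP-1 element in 6.75% and the STAT element in 7.02%. Of the other members, an inner start of *Bbc3*, which was not called after exercise, held the forkhead letters 167 bases ahead of it. CpG pairs, the substrate of *Dnmt3a*, numbered 24 in the *Bcl2l11* window shown (30 at its inner start), 26 in that of *Mcl1* and 12 in that of *Bcl2l1* (11 and 0 at its inner starts), against a median of 6 over all windows. At the starts nearest to the gene start of the members that were not called, there were 36 in *Bcl2*, 27 in *Bbc3*, 21 in *Bad*, 18 in *Bid*, 14 in *Bax* and 8 in *Bak1*, 9 of the 10 members having a window. A match is a string of letters and not a measured binding site.

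After exercise, the survival genes *Bcl2l1* and *Mcl1* and the death gene *Bcl2l11* were higher, whereas the survival gene *Bcl2* was not called. *Bcl2l1*, which encodes the survival protein BCL-XL, rose 2.75-fold, *Bcl2l11*, which encodes the BH3-only protein BIM, rose 1.90-fold, and *Mcl1*, a short-lived survival protein, rose 1.26-fold. The other 7 members were not called, with log2 fold changes between -0.26 and 0.23. Thus 3 of 10 members were higher and 0 lower at an adjusted p under 0.05, where 5.7% of all tested genes were higher and 4.69% lower. The median log2 fold change was 0.0052 over the members and -0.00088 over all tested genes.

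**Figure D1:**
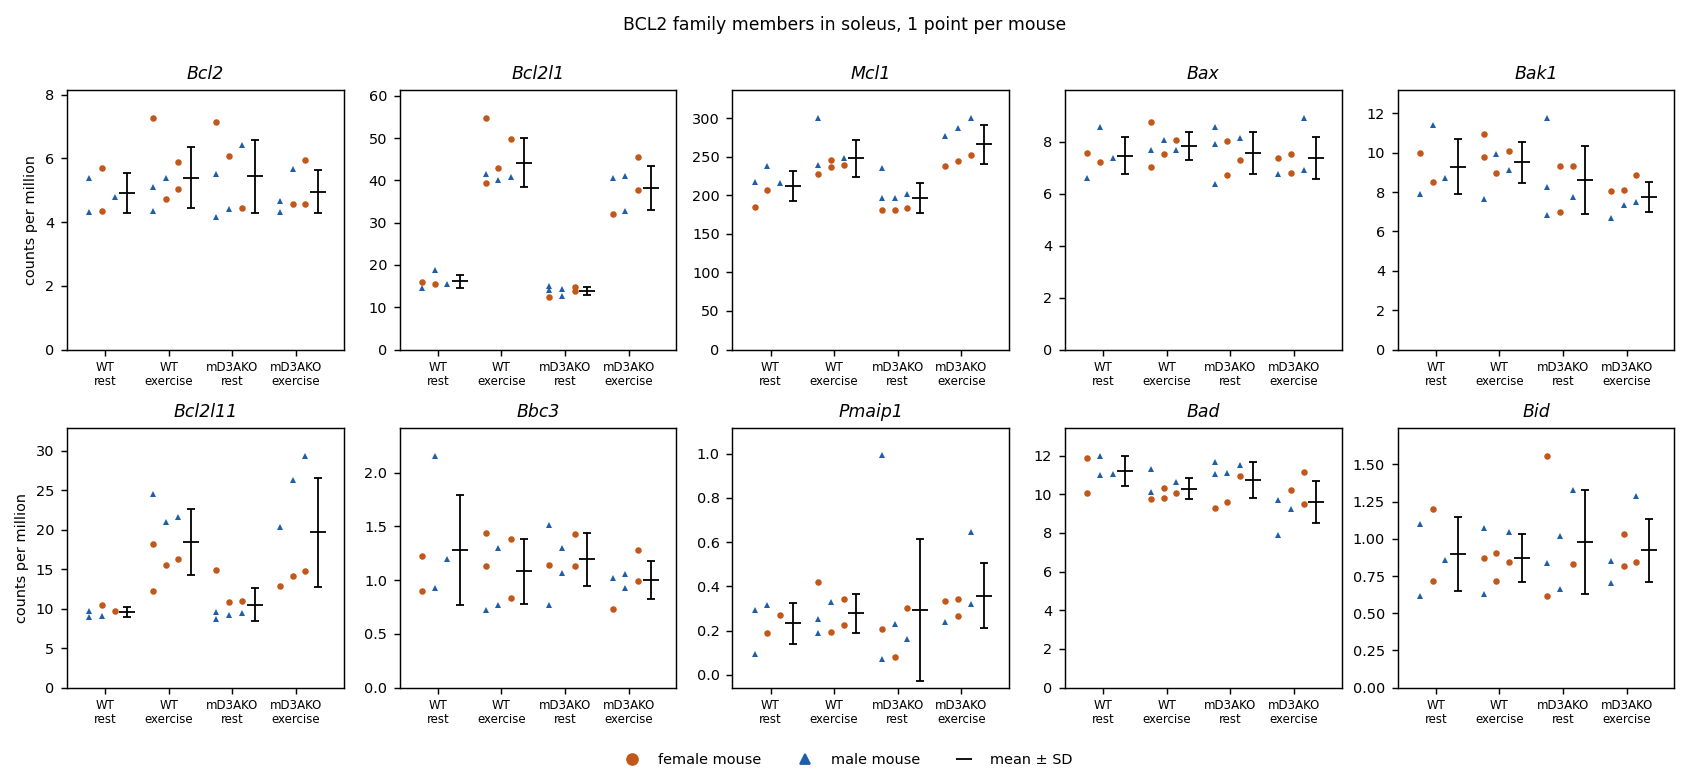
Levels of the 10 members in CPM (vertical axis, each panel on its own scale) in the 4 groups of mice, with 1 point per mouse (circles, females; triangles, males) and the mean ± SD beside the points. *Bcl2l1* runs from 12.5 to 18.7 at rest and from 32.0 to 54.8 after exercise with no overlap, *Bcl2l11* and *Mcl1* are higher after exercise with some overlap, and the other panels show overlapping groups.

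Among the survival members, *Bcl2l1* (chr2:152780668-152831728, minus strand, mm10) was at 14.6, 15.6, 15.6, 16.0 and 18.7 CPM in the 5 resting WT mice. In the 7 resting mD3AKO mice it was between 12.5 and 15.0 CPM (median 14.1). After exercise it was between 39.5 and 54.8 CPM (median 41.6) in the 7 WT mice and between 32.0 and 45.5 CPM (median 39.2) in the 6 mD3AKO mice. Every one of the 13 exercised libraries was above every one of the 12 rested libraries. Such a complete separation upward was found for 0.765% of all tested genes, and for *Bcl2l1* alone among the members. The log2 fold change was 1.46 (SE 0.065, adjusted p = 5.28e-14), the smallest p of the 16340 genes in this comparison; across the alternative settings run, its rank by p lay between 1 and 13. By size of the rise it was number 79 among the called genes.

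*Mcl1* (chr3:95658788-95663176, plus strand) was at 184, 207, 216, 217 and 237 CPM in the resting WT mice and between 180 and 236 CPM (median 196) in the resting mD3AKO mice. After exercise it was between 228 and 300 CPM (median 239) in WT and between 237 and 300 CPM (median 264) in mD3AKO mice. Of the exercised libraries, 10 of 13 were above every rested library, and the rested median was exceeded in all 13. Its log2 fold change was 0.33 (SE 0.055, adjusted p = 1.10e-04), a small change in a gene with little spread. The highest resting mD3AKO value came from mouse 15, and without that library the log2 fold change was 0.36.

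*Bcl2* (chr1:106538178-106714274, minus strand), the founding survival member, did not follow the others. It was at 5.22 ± 0.96 CPM (SD) in the 12 rested libraries and 5.19 ± 0.84 CPM in the 13 exercised ones, and its log2 fold change was -0.0031 (SE 0.096, adjusted p = 0.994). Its exons share 6.09% of their length with an opposite-strand gene, and since the strand setting of the counting is not given in the sources used here, reads of such partners cannot be told apart from reads of the member.

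Neither effector was called. *Bax* (chr7:45461697-45466898, minus strand), which moves from the cytosol to the mitochondrion when active, was at 7.54 ± 0.74 CPM (SD) in the 12 rested libraries and 7.63 ± 0.70 CPM in the 13 exercised ones, with a log2 fold change of 0.01 (SE 0.059, adjusted p = 0.949). *Bak1* (chr17:27019810-27029009, minus strand), which sits in the mitochondrial membrane, was at 8.89 ± 1.57 and 8.70 ± 1.27 CPM, with a log2 fold change of -0.06 (SE 0.082, adjusted p = 0.760). The rested and exercised libraries overlapped for both genes, with means closer together than their SD. Of the *Bax* exons, 12.2% of the length is shared with *Gm45808* on the same strand, and of the *Bak1* exons 14.8% with *Ggnbp1* on the opposite strand.

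Of the BH3-only members, *Bcl2l11* (chr2:128126038-128162547, plus strand) was at 8.95, 9.06, 9.73, 9.73 and 10.4 CPM in the resting WT mice. The resting mD3AKO mice were between 8.63 and 14.8 CPM (median 9.55), the highest being female mouse 2, with the others at most at 11.0 CPM. After exercise it was between 12.2 and 24.6 CPM (median 18.1) in WT and between 12.9 and 29.3 CPM (median 17.6) in mD3AKO mice. Of the exercised libraries, 9 of 13 were above every rested library, and the spread after exercise was wider (SD 5.40 CPM, n = 13) than at rest (SD 1.66 CPM, n = 12). The log2 fold change was 0.92 (SE 0.13, adjusted p = 1.29e-05). It differed between the sexes, at 1.37 in males and 0.41 in females in the fit by sex given below. In females fitted alone it was 0.40 and was not called (adjusted p = 0.0888).

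None of the other BH3-only members was called. *Bad* (chr19:6941861-6951898, plus strand), which is held inactive by growth factor signaling, was at 10.9 ± 0.86 CPM (SD) in the 12 rested libraries and 9.97 ± 0.87 CPM in the 13 exercised ones. Only 2 of 13 exercised libraries were above its rested median, but its log2 fold change of -0.14 (SE 0.052) had an adjusted p of 0.0902 and was not called. Without mouse 2 or without mouse 3 it was called, with adjusted p of 0.0411 and 0.0400. Of its exons, 25.8% of the length is shared with *Gpr137* on the opposite strand.

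*Bbc3* (chr7:16308393-16318205, plus strand), which encodes the p53 target PUMA, was low, at 1.23 ± 0.36 CPM (SD) in the 12 rested libraries and 1.04 ± 0.25 CPM in the 13 exercised ones, with a log2 fold change of -0.26 (SE 0.15, adjusted p = 0.363), or -0.12 without WT mouse 13. *Bid* (chr6:120891930-120916853, minus strand), which caspase-8 cleaves to link death receptors with mitochondria, was at 0.945 ± 0.30 and 0.894 ± 0.18 CPM, with a log2 fold change of -0.07 (SE 0.16, adjusted p = 0.874). *Pmaip1*, which encodes NOXA, the BH3-only partner of MCL1, was the lowest member, with 1 to 39 counts per library, and its log2 fold change was 0.23 (SE 0.32, adjusted p = 0.776). Of the exercised libraries, 11 of 13 were above its rested median, and without mD3AKO mouse 7 the log2 fold change was 0.60 (adjusted p = 0.117). The standard errors of these 3 genes, 0.15 to 0.32, were wide beside the 0.055 of *Mcl1*. *Bid* shares 17.7% of its exon length with *Bcl2l13* on the opposite strand.

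Per length of exon, as CPM divided by the exon length in kilobases (RPKM), *Mcl1* was by far the most abundant member at a mean of 67.5 over the 25 libraries. *Bcl2l1* followed at 6.25, *Bad* at 5.20, *Bax* at 4.81, *Bak1* at 3.65 and *Bcl2l11* at 1.84 RPKM. *Bcl2* at 0.568, *Bbc3* at 0.533, *Bid* at 0.259 and *Pmaip1* at 0.1104 RPKM closed the order. In resting WT mice the level of *Bad* (5.57 ± 0.39, SD, n = 5) was above that of *Bcl2l1* (3.51 ± 0.34), whereas after exercise *Bcl2l1* (9.64 ± 1.27, SD, n = 7) was above *Bad* (5.13 ± 0.27). The RPKM of *Bad* and *Bax* were within each other's spread after exercise in both genotypes, and those of *Bcl2* and *Bbc3* were within each other's spread in every group.

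The makeup of the followed survival members therefore shifted. The survival gene *Bcl2l2*, at 45.2 CPM at rest and 44.8 CPM after exercise, was not among them and is not in these sums. *Bcl2l1* made up 5.13% ± 0.44 (SD, n = 12) of the summed RPKM of *Bcl2*, *Bcl2l1* and *Mcl1* at rest and 10.8% ± 2.01 (SD, n = 13) after exercise. The 12 rested libraries lay between 4.51% and 5.89% and the 13 exercised libraries between 8.09% and 15.1%, without overlap. *Mcl1* still held 88.5% ± 2.08 of that sum after exercise, against 94.0% ± 0.49 at rest. The summed survival RPKM was 63.1 ± 6.10 at rest and 84.6 ± 6.93 after exercise, the lowest exercised library at 78.3 being above the highest rested library at 74.1.

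The ratio of *Bax* to *Bcl2l1* RPKM was 1.495 ± 0.22 (SD, n = 12) at rest and 0.543 ± 0.069 (SD, n = 13) after exercise, again without overlap, while the often used ratio of *Bax* to *Bcl2* was 8.58 ± 1.41 and 8.72 ± 1.49. The summed effector RPKM was 8.48 ± 1.06 at rest and 8.46 ± 0.72 after exercise. *Bcl2l11* made up 16.6% ± 3.24 of the summed RPKM of the followed BH3-only members at rest and 28.6% ± 6.38 after exercise, with overlapping libraries. The BH3-only gene *Bmf*, at 9.69 CPM at rest and 6.83 CPM after exercise, was not in that sum. The ratio of *Bcl2l1* to *Bcl2l11* RPKM was 2.62 ± 0.47 and 4.16 ± 1.55. That ratio moved in females, from 1.64 to 2.81 (median 2.38, n = 5) at rest to 3.81 to 7.85 (median 5.12, n = 7) after exercise without overlap. In males it overlapped, with 2.34 to 3.37 (median 2.85, n = 7) at rest and 2.18 to 3.53 (median 3.10, n = 6) after exercise. The BH3-only share of *Bcl2l11* in males was 13.0% to 15.9% at rest and 28.9% to 39.4% after exercise, without overlap. Among females that share overlapped, with 16.1% to 25.5% at rest and 20.1% to 27.9% after exercise. All of these are RNA levels, and they follow from the changes of the single genes given above.

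**Figure D2:**
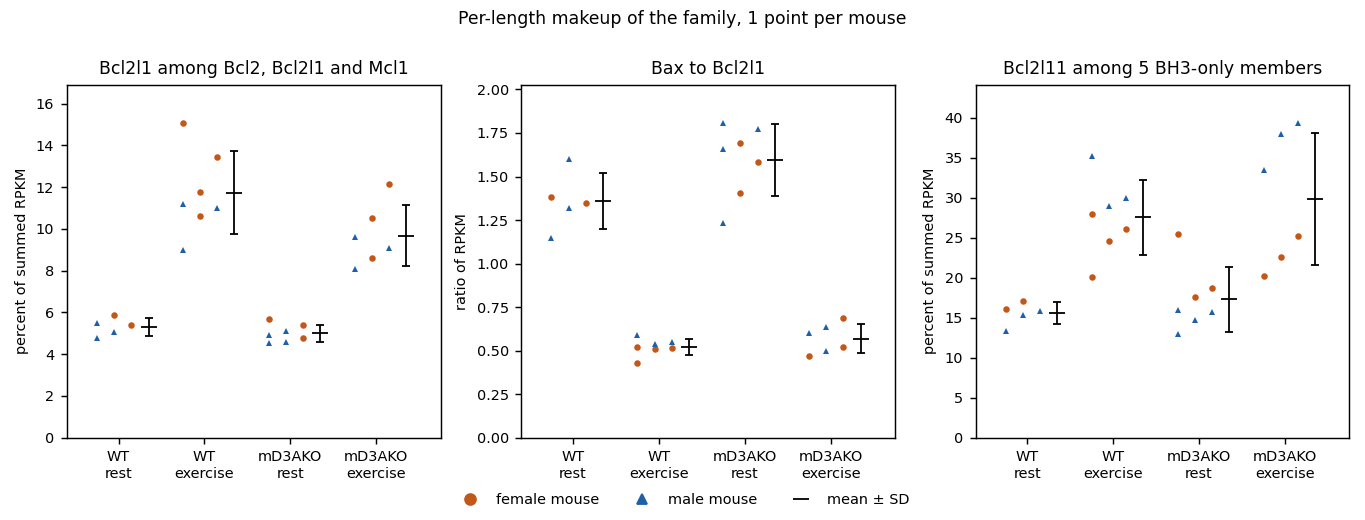
Per-length makeup of the family in the 4 groups, with 1 point per mouse (circles, females; triangles, males) and the mean ± SD: percent of *Bcl2l1* in the summed RPKM of the 3 survival members, ratio of *Bax* to *Bcl2l1* RPKM, and percent of *Bcl2l11* in the summed RPKM of the 5 BH3-only members. The first 2 measures separate rest from exercise completely (4.51% to 5.89% against 8.09% to 15.1%, and 1.15 to 1.81 against 0.430 to 0.686), and the third overlaps. Split by sex, the third overlaps in females (16.1% to 25.5% against 20.1% to 27.9%) but not in males (13.0% to 15.9% against 28.9% to 39.4%).

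Each genotype was also tested on its own, and *Bcl2l1* and *Bcl2l11* were called in both. In WT mice 2 of 10 members were called (3.59% of all tested genes), *Bcl2l1* with a log2 fold change of 1.46 (SE 0.095, adjusted p = 2.20e-10) and *Bcl2l11* with 0.95 (SE 0.19, adjusted p = 0.00295). *Mcl1*, at 0.22 (SE 0.080), had an adjusted p of 0.149 there, but was called with sex as an additive term (0.26, adjusted p = 0.00757) and with the runs of mouse numbers as one (0.26, adjusted p = 0.00644). In mD3AKO mice 3 of 10 were called (6.02% of all tested genes), *Bcl2l1* with 1.46 (SE 0.087, adjusted p = 3.17e-11), *Bcl2l11* with 0.90 (SE 0.18, adjusted p = 0.00161) and *Mcl1* with 0.44 (SE 0.075, adjusted p = 3.60e-04).

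In females fitted alone *Bcl2l11* was not called in either genotype, at 0.62 in WT (adjusted p = 0.15) and 0.19 in mD3AKO mice (adjusted p = 0.807), whereas in males alone it was called in both, at 1.27 (adjusted p = 1.23e-04) and 1.46 (adjusted p = 6.32e-06).

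A gene past the threshold in 1 genotype only is not thereby shown to differ, and the test of the difference itself called none. The interaction, which is the exercise response of mD3AKO minus that of WT mice, was called for 0 of 10 members and for 0 of all tested genes (0%), and at an unadjusted p under 0.05 for 0 members and 403 genes (2.47%); DESeq2 also called 0. For *Bcl2l1* the responses differed by 0.0047 on the log2 scale (SE 0.12), for *Bcl2l11* by -0.05 (SE 0.26) and for *Mcl1* by 0.22 (SE 0.11, unadjusted p = 0.0593, adjusted p = 1.00). With sex or the runs of mouse numbers as an additive term, or without mouse 1, 3, 6, 9 or 15, the unadjusted p of *Mcl1* was 0.0144 to 0.0418 and its adjusted p 0.992 to 1.00. The difference in *Bcl2l11* was -0.43 in females fitted alone (unadjusted p = 0.0768) and 0.19 in males fitted alone (unadjusted p = 0.270), with an adjusted p of 1.00 in each.

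**Figure D3:**
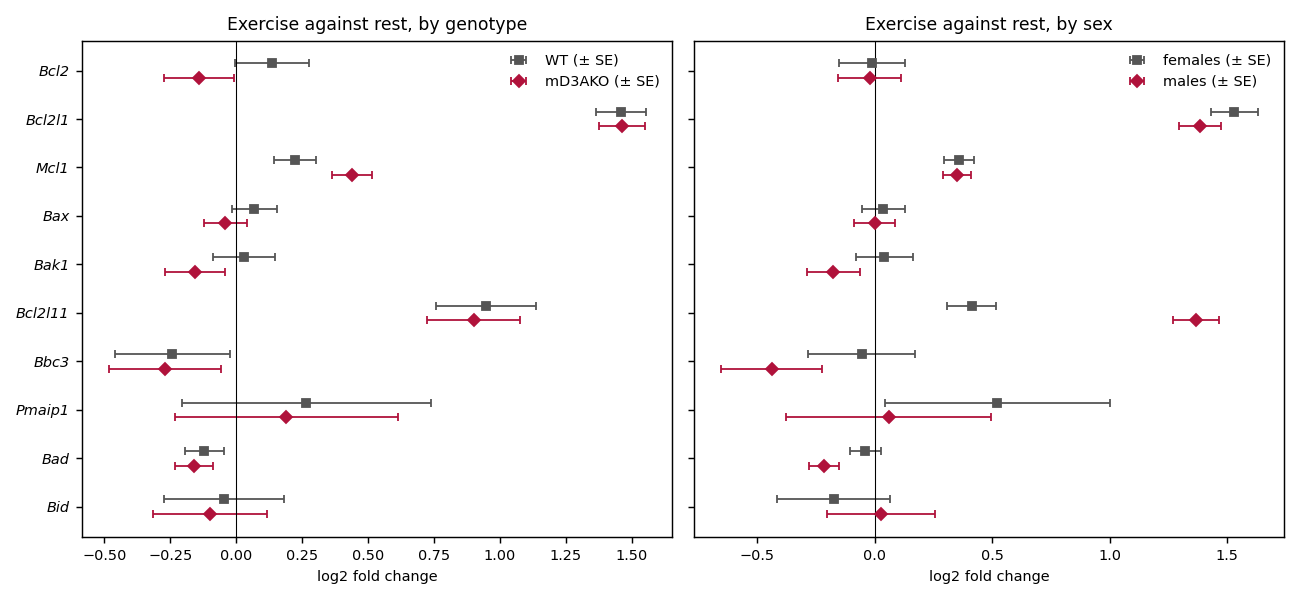
Log2 fold change of each member after exercise (horizontal axis, ± SE), on the left in WT and mD3AKO mice and on the right in females and males. *Bcl2l1* is at 1.46 in both genotypes, and *Bcl2l11* is at 0.41 in females and 1.37 in males.

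Loss of *Dnmt3a* in muscle was not followed by a called change in any member. Over rest and exercise together 0 of 10 members were called by edgeR, where 0.269% of all tested genes were, and DESeq2 likewise called 0 members. At an unadjusted p under 0.05 there were 2 members, where 6.23% of all tested genes passed. *Bcl2l1* had a log2 fold change of -0.21 in mD3AKO against WT mice (SE 0.063, unadjusted p = 0.00256, adjusted p = 0.300). Resting mice averaged 16.1 ± 1.55 CPM with *Dnmt3a* intact (SD, n = 5) against 13.9 ± 0.95 CPM without (SD, n = 7). After exercise these averages stood at 44.2 ± 5.81 CPM (n = 7) against 38.3 ± 5.19 CPM (n = 6). *Bak1* had -0.20 (SE 0.081, unadjusted p = 0.0226, adjusted p = 0.681). The remaining 8 had log2 fold changes between -0.10 and 0.38, the latter being *Pmaip1*, which had 0.01 when mouse 7 was left out.

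The 13 males and 12 females were compared in a fit with 8 groups of sex, genotype and exercise, in which 17389 genes were tested. Females carry the mouse numbers 1 to 6 and 20 to 25 and males the numbers 7 to 19, so sex and the order of numbering cannot be told apart. The response to exercise differed between the sexes for 1 of 10 members, *Bcl2l11*, where 0.046% of all tested genes, 8 in number, were called.

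In females *Bcl2l11* was between 9.73 and 14.8 CPM (median 10.8, n = 5) at rest and between 12.2 and 18.1 CPM (median 14.8, n = 7) after exercise. In males it was between 8.63 and 9.73 CPM (median 9.23, n = 7) at rest and between 20.4 and 29.3 CPM (median 23.1, n = 6) after exercise. All 6 exercised males were above every other library of the study, exercised females included, while 3 of 7 exercised females were above every rested mouse. How many of all tested genes separate exercised males in this way was not counted. The log2 fold change was 1.37 (SE 0.097, adjusted p = 3.49e-09) in males and 0.41 (SE 0.10, adjusted p = 0.0240) in females, which is 2.58-fold and 1.33-fold.

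The difference of these responses was 0.96 on the log2 scale (SE 0.14, adjusted p = 0.0112). With each mouse left out in turn it was between 0.87 and 1.02, with adjusted p of at most 0.0337. Without composition factors, on library totals alone, the difference was also 0.96, but its adjusted p was 0.0557. In a fit of the 12 female libraries alone the female response of 0.40 had an adjusted p of 0.0888. Within the females numbered 20 to 25, *Bcl2l11* was at 10.4 to 11.0 CPM in 3 rested and 14.1 to 16.3 CPM in 3 exercised mice; within those numbered 1 to 6, which hold the stray mouse 2, it was at 9.73 to 14.8 CPM in 2 rested and 12.2 to 18.1 CPM in 4 exercised mice.

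No such difference was called for *Bcl2l1* and *Mcl1*. *Bcl2l1* rose by 1.53 (SE 0.099) in females and 1.38 (SE 0.090) in males, a difference of -0.15 (SE 0.13, adjusted p = 1.00), and *Mcl1* by 0.36 (SE 0.064) and 0.35 (SE 0.059), a difference of -0.01 (SE 0.087, adjusted p = 1.00). *Bad* was lower after exercise in males (-0.21, SE 0.063, adjusted p = 0.0434), going from 11.3 ± 0.39 CPM (n = 7) to 9.81 ± 1.18 CPM (n = 6), and stood at -0.04 (SE 0.067, adjusted p = 0.940) in females, with an adjusted p of 1.00 for the difference. In a fit of the 13 male libraries alone *Bad* was not called (-0.22, adjusted p = 0.0709). In all, 4 of 10 members were called in males, where 6.41% of all tested genes were, and 3 of 10 in females, where 3.5% were.

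Averaged over the groups, *Mcl1* was higher in males by 0.20 on the log2 scale (SE 0.044, adjusted p = 0.00517) and *Bcl2l11* by 0.23 (SE 0.071, adjusted p = 0.0499), which made 2 of 10 members against 8.15% of all tested genes. Both calls were lost on library totals alone (adjusted p = 0.464 and 0.432), and that of *Bcl2l11* was lost in 22 of the 25 fits that left out 1 mouse. At rest, *Bcl2l11* stood at 9.22 ± 0.37 CPM (SD, n = 7) in males and 11.4 ± 2.01 CPM (SD, n = 5) in females, with 6 of the 7 rested males below every rested female.

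**Figure D4:**
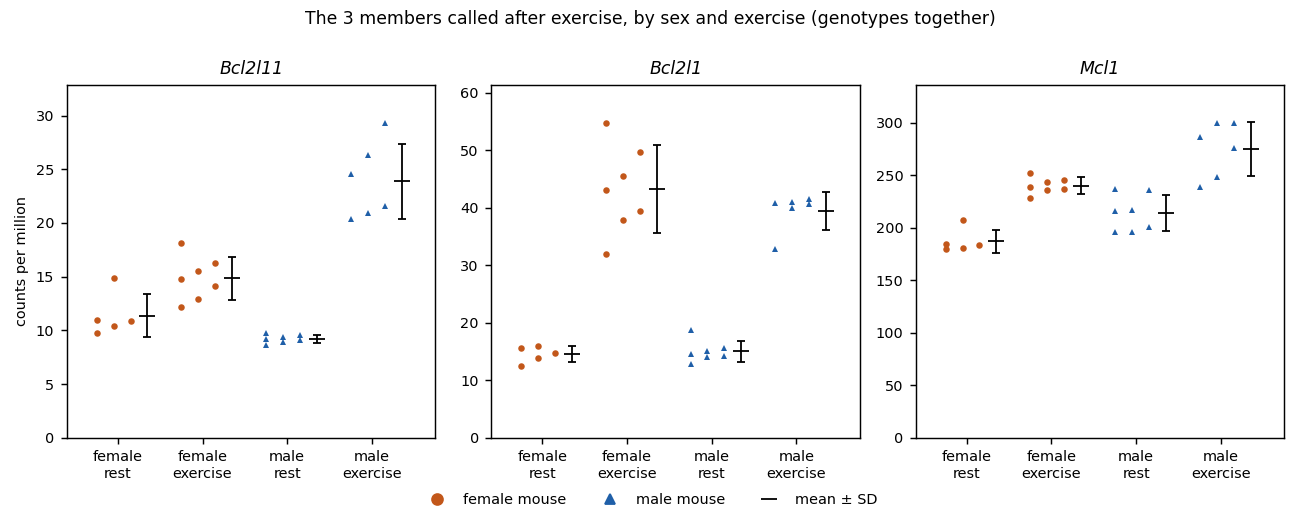
Levels of *Bcl2l11*, *Bcl2l1* and *Mcl1* in CPM by sex and exercise, genotypes together, with 1 point per mouse and the mean ± SD. *Bcl2l11* reaches 20.4 to 29.3 in exercised males and 12.2 to 18.1 in exercised females, whereas exercised males and females overlap for *Bcl2l1* and *Mcl1*.

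Across the 25 libraries the 3 called members went together, with Pearson's r of 0.76 for *Bcl2l1* and *Mcl1*, 0.75 for *Bcl2l1* and *Bcl2l11* and 0.74 for *Mcl1* and *Bcl2l11* (log2 CPM). Once the mean of each group was taken out, r was -0.0015, -0.29 and 0.35. These are descriptions over libraries that share the exercise groups.

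The 5 genes whose log2 CPM ran closest to *Bcl2l1* over the 25 libraries were the kinase gene *Map3k6* (r = 0.97), *Fam117b*, the adhesion receptor gene *Adgrg1*, the mitochondrial carrier gene *Slc25a25* and *Tob2*, with r of at least 0.96, and within groups their r was 0.22 to 0.50. For *Bcl2l11* they were the chaperone gene *Dnajb4* (r = 0.94), the antiproliferative gene *Btg2*, the RNA-binding protein gene *Rbm24*, *Habp2* and the zinc finger gene *Zbtb10* (r = 0.92), and within groups their r stayed at 0.76 to 0.83. Males and females are mixed within these groups, and likeness over libraries is a description only.

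Genes around the family were read from 5 lists. Of all tested genes, 5.7% were higher and 4.69% lower after exercise, and the list counts are to be read beside these shares. Of 14 other BCL2 relatives, 9 had enough reads to be tested, 0 were higher and 1 was lower. The lower gene was *Bmf*, a BH3-only gene tied to the cytoskeleton, at 9.69 ± 1.59 CPM (SD) in the 12 rested libraries and 6.83 ± 1.30 CPM in the 13 exercised ones (log2 fold change -0.50, SE 0.11, adjusted p = 0.00183), so that the BH3-only genes *Bcl2l11* and *Bmf* went opposite ways. In females fitted alone neither was called, with *Bmf* at -0.43 (adjusted p = 0.0692) and *Bcl2l11* at 0.40 (adjusted p = 0.0888). The survival gene *Bcl2l2* was at 45.2 ± 2.63 and 44.8 ± 2.75 CPM.

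Of 17 genes of the apoptosome, the caspases and their inhibitors, 0 were higher and 2 lower. These were *Casp2* (log2 fold change -0.28, SE 0.084, adjusted p = 0.0257) and the apoptosome's initiator *Casp9* (-0.24, SE 0.071, adjusted p = 0.0294). On library totals alone, and in each sex fitted alone, *Casp2* and *Casp9* were not called, with adjusted p of 0.0748 to 0.423. *Casp9* was also not called without the filter on low counts (0.0601) or without mouse 3, 13, 17 or 20 (0.0507 to 0.0745), nor *Casp2* without mouse 20 (0.0745). *Apaf1*, *Cycs* and *Xiap* were not called.

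Of 8 genes of the death receptor pathway, 2 were higher and 0 lower. *Fas*, a death receptor, was at 5.90 ± 1.04 CPM (SD) in the 12 rested libraries and at 9.30 ± 0.91 CPM in the 13 exercised ones, with a log2 fold change of 0.64 (SE 0.068, adjusted p = 1.57e-07). *Cflar*, which blocks caspase-8 at such receptors, had 0.17 (SE 0.037, adjusted p = 0.00185), and was not called on library totals alone (adjusted p = 0.381), in males alone (0.0920) or in females alone (0.284). *Bid*, the link from these receptors to mitochondria, was not called, as given above.

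Of 15 regulators of the members, 14 were tested, 3 were higher and 1 lower. *Foxo1*, a forkhead factor known to act on *Bcl2l11*, went from 14.5 ± 1.46 to 34.3 ± 8.51 CPM (log2 fold change 1.25, SE 0.11, adjusted p = 3.13e-09), and its relative *Foxo3* had 0.50 (SE 0.10, adjusted p = 0.00122). The stress factor *Atf4* had 0.32 (SE 0.059, adjusted p = 4.38e-04), whereas *Ddit3*, which encodes its partner CHOP, had -0.35 (SE 0.10, adjusted p = 0.0247). In females fitted alone *Atf4* was not called (0.19, adjusted p = 0.167). *Ddit3* was not called in males fitted alone (-0.23, adjusted p = 0.363) or without WT mouse 1 (-0.33, adjusted p = 0.0505). *Trp53* had -0.16 (SE 0.078, adjusted p = 0.226). All 6 partners at the outer membrane, such as *Vdac1* and *Vdac2*, went without a call, between -0.00019 and 0.04. None of the tested genes of these 5 lists was called for genotype or for the interaction by edgeR, where 0.269% and 0% of all tested genes were.

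**Figure D5:**
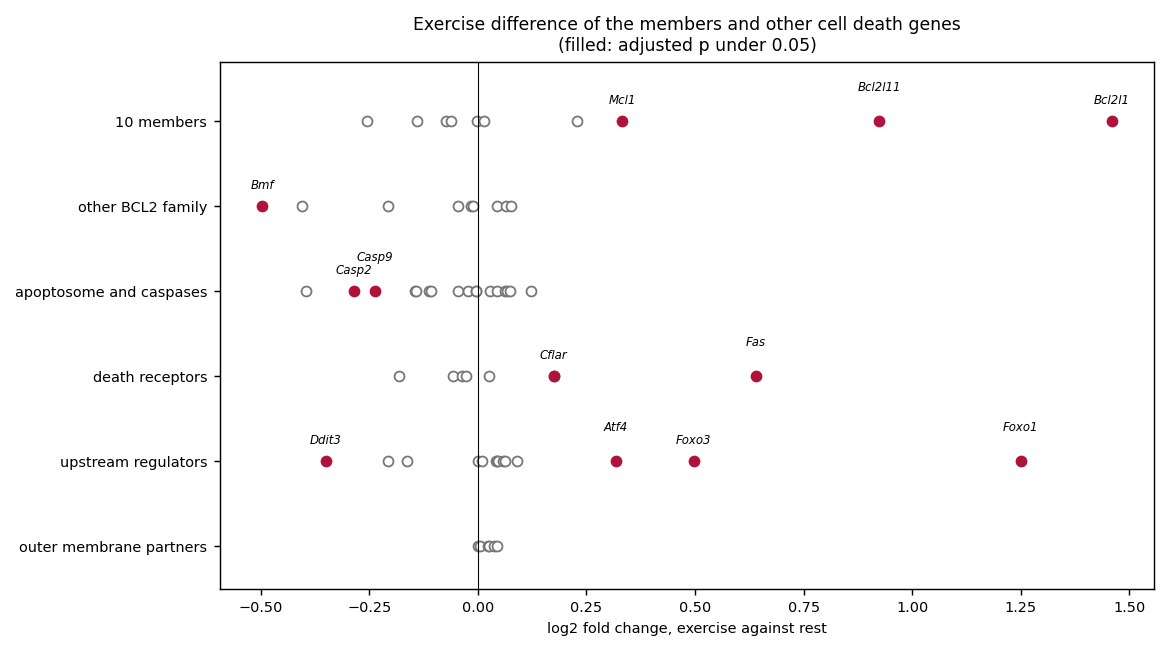
Log2 fold change after exercise (horizontal axis) of the 10 members and of the tested genes of 5 other cell death lists, 1 circle per gene, filled and named where the adjusted p was under 0.05. Filled circles lie to the right for *Bcl2l1*, *Bcl2l11*, *Mcl1*, *Fas*, *Cflar*, *Foxo1*, *Foxo3* and *Atf4*, and to the left for *Bmf*, *Casp2*, *Casp9* and *Ddit3*.

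Markers of other cells moved with exercise in part, where 5.7% of all tested genes were higher and 4.69% lower. Of 8 endothelial markers 5 were lower after exercise, and their summed level was 467 to 624 CPM at rest and 396 to 514 CPM after exercise. Of 4 satellite cell markers 2 were lower (summed level 41.8 to 59.0 and 38.7 to 56.9 CPM), of 7 tested immune markers 1 (30.8 to 97.4 and 19.0 to 93.3 CPM) and of 4 smooth muscle and pericyte markers 1 (684 to 865 and 705 to 881 CPM). None of the markers of muscle fibers (65742 to 87621 and 69442 to 83757 CPM), fibroblasts (879 to 2701 and 927 to 2113 CPM), adipocytes (29.7 to 476 and 42.3 to 483 CPM), Schwann cells (32.8 to 422 and 27.5 to 270 CPM) or blood (73.6 to 464 and 72.9 to 283 CPM) was called. No marker of these lists was at 0 in all libraries. Between genotypes, 1 of the 4 satellite cell markers was called, where 0.269% of all tested genes were. It was *Pax7*, higher in mD3AKO than in WT mice (log2 fold change 0.48, SE 0.11, edgeR adjusted p = 0.0384). The part of these cells in the changes of the members was not tested.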

How the data were processed

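The authors removed ribosomal RNA, sequenced 75-bp reads and deposited counts per gene on mm10 with GENCODE release 15, without normalization. The submitters' processing notes name FastQC 0.11.5, STAR 2.5.3a and featureCounts 1.5.3; whether counting used the strand is not given in the sources used here. The count table holds 25 libraries and 0 columns of other samples. Symbols were matched through GENCODE release 21 for 52403 of 52636 genes. Members and gene lists were chosen with earlier results of these data known, and 1 listed gene is not reported here.

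Counts were tested with the quasi-likelihood F test of edgeR 4.0.16 (limma 3.58.1, R 4.3.3) with TMM factors. filterByExpr (minimum count 10, minimum total 15) kept 16340 genes. The model had 1 mean for each of 4 groups. Each main effect gave equal weight to both levels of the other factor, and a standard error (SE) was the log2 fold change over the root of its F value. Benjamini-Hochberg adjustment covered all tested genes. Sex was tested with 8 groups. The fit was tested on simulated data, but no outcome of that is given here and no result above rests on it. DESeq2 1.42.0 was an alternative. The 67 pairs of replicates held 0 identical libraries, and the lowest chi-square per gene of a pair was 12.9, so each mouse was counted once. Named are the members, the called genes of each list with the largest changes (at most 3 each way), and the 5 genes most like *Bcl2l1* and *Bcl2l11* (mean log2 CPM not below 0); *Bcl2l2*, *Apaf1*, *Cycs*, *Xiap*, *Trp53*, *Vdac1* and *Vdac2*, which were not called, are outside this rule and were chosen after their values were seen. The marker *Pax7* is named because it was called for genotype. Log2 CPM used a prior count of 2, and RPKM divided CPM by exon length. Words of 31 bases shared with transcripts of other genes made up at most 0.498% of those of *Bcl2l1*, *Mcl1*, *Bcl2l11*, *Bbc3* and *Pmaip1*, but 6.21% of those of *Bcl2*, 11.1% of *Bax*, 16.9% of *Bid*, 18.4% of *Bad* and 20.4% of *Bak1*.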

Additional observations from a re-analysis of the deposited data

Results flagged for a closer look

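Each member was looked at in each of the 4 groups, 40 in all. A single library was flagged when its gap to the nearest other library was large against the range of its group. The rule is meant to mark about 1 in 20 such groups by chance, but that rate was not measured in these data. *Mcl1* was at 300 CPM (299.8) in WT mouse 9 after exercise, where the next library was at 249, and at 235.6 CPM in resting mD3AKO mouse 15, the library rich in ribosomal RNA, where the next was at 201. *Bcl2l11* was at 14.8 CPM in resting mD3AKO mouse 2, a female, where the next was at 11.0. *Bax* was at 8.93 CPM in exercised mD3AKO mouse 19, where the next was at 7.54. *Bbc3* was at 2.15 CPM (73 counts) in resting WT mouse 13, where the next was at 1.22. *Pmaip1* was at 0.995 CPM (39 counts) in resting mD3AKO mouse 7, where the next was at 0.302, and at 0.645 CPM (19 counts) in exercised mD3AKO mouse 19, where the next was at 0.343. Without any 1 of these mice *Bcl2l1*, *Bcl2l11* and *Mcl1* were still called after exercise.

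The response of *Bcl2l11* to exercise differed between the sexes by 0.96 on the log2 scale (males minus females, edgeR adjusted p = 0.0112). All 6 exercised males were above all 7 exercised females, and the share of all tested genes with such a split was not counted. The mouse numbers follow the sexes, and what the numbers mark is not given in the sources used here.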

How the results depend on the processing

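No paired analysis was possible because each mouse has a number of its own and the groups share none, so no fit with the mouse number as a pairing term could be made. The alternatives were DESeq2 size factors, library totals alone, no filter on low counts, DESeq2, sex or the runs of mouse numbers as additive terms, each sex alone, 3 ribosomal RNA genes left out, and each of the 25 mice left out. For the sexes, DESeq2 and library totals alone were added after seeing the data. Under all of them 3 members were higher after exercise, except that females alone gave 2, and 0 members were called for genotype or interaction. With single mice left out the number of lower members was 0 to 1 (*Bad*, without mouse 2 or 3). In females alone 1 member was called in WT, against 2, and 2 in mD3AKO mice, against 3 (*Bcl2l11* was lost in both). With sex or the runs of numbers as a term 3 were called in WT (*Mcl1* was added). The number of members called between the sexes was 1 to 2 with single mice left out and 0 on library totals alone, and the number whose response differed between the sexes was 0 on library totals alone, against 1 in the main fit. Library totals alone also moved all genes, with 520 higher and 407 lower after exercise against 932 and 767; the cause was not tested. Some values changed sign. For exercise these were *Bcl2* with the runs of numbers (0.0120), *Bax* on library totals alone (-0.0109) and in males alone (-0.0056), *Bak1* in females alone (0.0318) and *Bid* in males alone (0.0196). With single mice left out, the ranges were -0.0442 to 0.0365 for *Bcl2*, -0.0216 to 0.0429 for *Bax* and -0.14 to 0.0061 for *Bid*, while *Pmaip1* (0.10 to 0.60) and *Bbc3* (-0.31 to -0.12) kept their sign. Under the other alternatives *Pmaip1* had 0.0424 to 0.51 and *Bbc3* -0.44 to -0.0649. For genotype these were *Bcl2* on library totals alone (-0.0056), *Mcl1* in males alone (0.0083) and *Pmaip1* in females alone (-0.0720, against 0.38), and with single mice left out -0.0212 to 0.0596 for *Bcl2*, -0.0342 to 0.0188 for *Mcl1* and -0.15 to 0.0359 for *Bbc3*. For the interaction, *Bcl2l1* changed sign on library totals alone (-0.0172), without the filter (-0.0052), with the runs of numbers (-0.0058) and in females alone (-0.0777). In males alone *Bcl2l11* had 0.19 and *Bbc3* 0.37 (-0.43 and -0.47 in females alone, against -0.05 and -0.03). In females alone *Pmaip1* had 0.30, *Bad* 0.19 and *Bid* 0.0367 (-0.18, -0.26 and -0.14 in males alone, against -0.08, -0.04 and -0.05). With the runs of numbers *Bbc3* had 0.0017 and *Bid* 0.0129. With single mice left out the interaction was -0.0546 to 0.0600 for *Bcl2l1*, -0.20 to 0.0607 for *Bcl2l11*, -0.30 to 0.0751 for *Bbc3*, -0.32 to 0.66 for *Pmaip1*, -0.0875 to 0.0108 for *Bad* and -0.18 to 0.0964 for *Bid*. For exercise, DESeq2 changed no count of the 5 lists, and the lists were not counted under DESeq2 for genotype. *Bmf* and *Atf4* lost their call in females alone, *Ddit3* in males alone and without WT mouse 1, and *Cflar* in each sex alone and on library totals alone. *Pmaip1*, *Bid* and *Bbc3* were the shallowest members, with as few as 1, 12 and 11 counts in a library.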
